A study of Homo sapiens with 9 samples.

Results

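The transcripts described here are those of 49 listed genes of homologous recombination, the Fanconi anaemia pathway and the DNA damage checkpoint, measured on 9 Affymetrix whole-transcript arrays of MDA-MB-231 cells. MDA-MB-231 is an established human breast cancer line that was derived from a pleural effusion, and all 9 samples were total RNA of that line. A gene was taken where a probe set carried its symbol and no other, and the brightest such probe set was used, which gave 39 measured genes of the 49, each with 1 probe set, among 22109 genes in the whole series. Of the other 10, RAD51D, RAD54B, ATM, ATRIP and RECQL4 lay on probe sets listing more than 1 symbol, and FANCA, FANCD2, BRCA2, XRCC2 and RBBP8 were not analysed here. ATM shared its probe set with NPAT and ATRIP shared one with TREX1, while the probe set of RECQL4 listed that symbol a second time.

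The arrays formed 3 groups of 3. Cells of the 20 h group received YM-155 (sepantronium bromide, described as a suppressor of the inhibitor of apoptosis protein survivin) at 14.6 ng/ml, the concentration that the labels give as its LC50. Cells of the 8 h group received YM-155 in steps that added up to 83 ng/ml and were collected, per the labels, while still attached and without visible death. Control cells were untreated, and neither a time nor a vehicle was given for them, although YM-155 was dissolved in DMSO and diluted in a buffered salt solution. Dose and time differed together, so the effects of either cannot be told apart in any comparison. Whether the replicates of a group were grown as separate cultures is not given, so the p-values rest on a spread that may be technical.

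Homologous recombination repairs double-strand breaks by copying an intact sister chromatid: nucleases first resect the broken end, a recombinase is then loaded on the single strand and invades the sister, and helicases and nucleases separate the joined molecules. The Fanconi pathway removes interstrand crosslinks, through a ubiquitin ligase core complex that modifies a clamp on DNA and so recruits nucleases, and then hands the break to recombination. The checkpoint kinases sense the damage and delay the cell cycle, and transcripts of many of these genes are known to be more abundant in S and G2 phase of proliferating cells than in resting cells.

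All values are RMA summaries on the log2 scale, so a difference of 1 is a 2-fold change, and levels are compared between arrays for 1 gene and not between genes. Array medians lay between 3.11 and 3.20 and the median level of all genes was 3.89. Control replicate 3 stood apart, its differences from control replicates 1 and 2 having SDs of 0.312 and 0.313 over brighter genes (those above that median), against 0.187 between the other pair, and counts are therefore also given without it. On that array the listed genes had a median difference of 0.01 from the other controls and 20 of 39 higher. The closest pair within a group was 8 h replicates 1 and 2, with an SD of 0.147, against 0.217 and 0.221 with 8 h replicate 3. Some genes, FANCI and UBE2T among them, had the same value on both arrays of that pair. A fit with the pair counted as 1 sample was also run. Of the markers of this line, AXL (10.1 to 10.9 over the 9 arrays), CD44 (9.03 to 9.55) and VIM (8.40 to 8.75) were far above the median level, while SPARC (3.03 to 3.61) was below it. The luminal receptor genes ESR1 (2.59 to 3.25) and PGR (1.81 to 2.11) and the leukocyte marker PTPRC (1.74 to 1.85) were below that median on every array. Levels of the other luminal and leukocyte markers are not given here.

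In cells treated for 20 h, transcripts of most of the measured genes were lower than in untreated cells. Of the 39 measured genes, 32 fell, 0 rose and 7 were not called at an adjusted p of 0.05 in limma, where 17.2% of all genes tested were lower and 13.1% higher. The fall was at least 2-fold for 24 of them, against 3.91% of all genes. The log2 difference was negative for 39 of 39, against 9924 of all 22109 genes. Its median was -1.26, a 2.40-fold lower level, with a range of -3.26 to -0.14, while the median over all genes was 0.03. All 3 arrays at 20 h lay below all 3 controls for 35 of the 39, against 21.4% of all genes. Without control replicate 3, 34 fell and the median was -1.33. The RNA was bulk RNA, so fewer cells that express a gene and less RNA of it per cell cannot be told apart.

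At 8 h fewer of the genes were called. There 18 of 39 fell, 0 rose and 21 were not called, against 6.28% of all genes lower and 5.93% higher. At least 2-fold, 3 fell, RMI1, FANCF and POLQ, against 0.285% of all genes. The median log2 difference was -0.42, against -0.003 over all genes. It was negative for 38 of 39, the exception being WRN, against 11221 of all 22109 genes. All 3 arrays at 8 h lay below all controls for 25 genes, against 14.5% of all genes, and above them for 1, WRN, against 12.9% of all genes. Without control replicate 3, 21 fell, with a median of -0.40.

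Between the treated groups, 27 of 39 were lower at 20 h than at 8 h, 0 were higher and 12 were not called, against 13.6% of all genes lower and 8.95% higher. The difference was at least 2-fold for 16, against 1.79% of all genes, and its median was -0.87. All 3 arrays at 20 h lay below all 3 at 8 h for 27 genes, against 20.5% of all genes. The 3 comparisons share arrays, so their counts are not separate evidence. Against the mean of the controls, the median of the 39 genes was -1.20, -1.22 and -1.38 on the 3 arrays at 20 h, with 39 of 39 genes below it on each. On the 3 arrays at 8 h it was -0.49, -0.46 and -0.37, with 38, 36 and 35 genes below. It was 0.02, 0.00 and 0.00 on the controls themselves. Such counts for single arrays were not made over all genes.

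**Figure D1:**
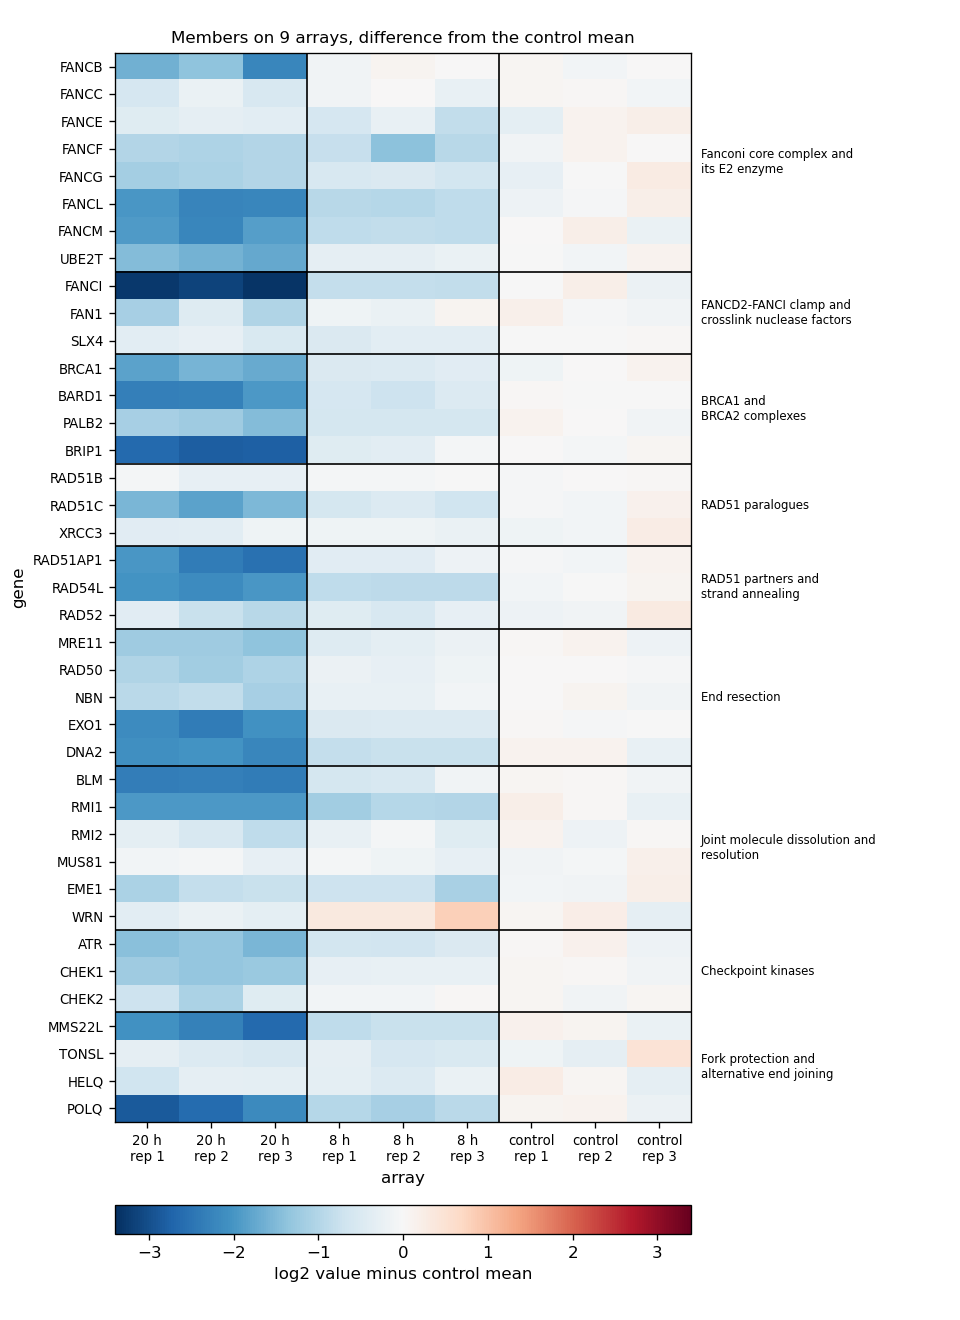
Difference of each measured gene from its control mean on each of the 9 arrays (log2, colour), with genes ordered by role and arrays in columns from 20 h to control. The columns at 20 h are blue for most genes and those at 8 h are paler, while rows such as MUS81, XRCC3 and RAD51B stay near 0 throughout.

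**Figure D2:**
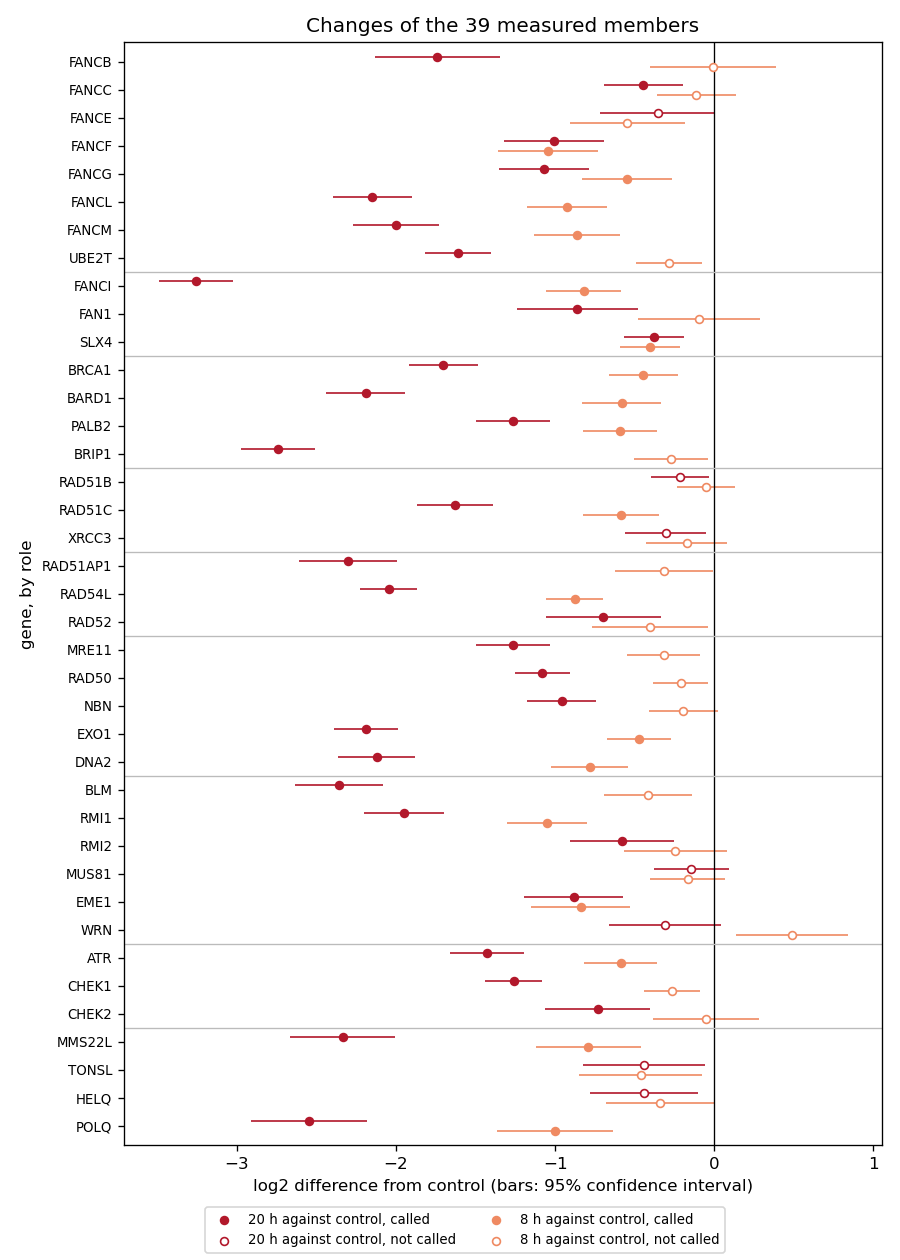
Log2 difference from control of each measured gene (horizontal axis) at 20 h and at 8 h, with 95% confidence intervals from limma as bars and filled points for genes called at an adjusted p of 0.05. FANCI lies farthest to the left at 20 h, at -3.26, and WRN is the only gene to the right of 0 at 8 h.

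The genes that fell most and those that stayed near the control level can be set beside their promoters. The 250 bases before the transcription start are shown for BRIP1, POLQ, BLM and RAD51AP1, which are among the largest falls at 20 h, and for XRCC3 and MUS81, which were not called in any comparison. Sequences are those of RefSeq on GRCh38.p14, read 5' to 3' on the gene's strand, and end at the base before the start site. Capitals mark 3 kinds of word. The first is the CCAAT box, which on the other strand reads ATTGG. The second is the core of the cell cycle homology region, TTTGAA, which on the other strand reads TTCAAA. The third is a core word of E2F sites, searched as TTCCCGC and as its variants with other inner bases, which were TTGGCGC, then also TTGCCGC, and last of these TTCGCGC, each on both strands. The windows are chr17:61863529-61863778 (minus strand) for BRIP1, chr3:121545989-121546238 (minus) for POLQ, chr15:90717096-90717345 (plus) for BLM and chr12:4538640-4538889 (plus) for RAD51AP1. Those of the genes that were not called are chr14:103715452-103715701 (minus) for XRCC3 and chr11:65860183-65860432 (plus) for MUS81.
BRIP1: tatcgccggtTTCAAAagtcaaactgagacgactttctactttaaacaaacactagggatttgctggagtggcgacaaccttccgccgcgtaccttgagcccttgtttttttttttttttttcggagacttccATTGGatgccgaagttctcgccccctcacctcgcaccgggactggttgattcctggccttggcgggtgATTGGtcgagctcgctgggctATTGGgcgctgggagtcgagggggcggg
POLQ: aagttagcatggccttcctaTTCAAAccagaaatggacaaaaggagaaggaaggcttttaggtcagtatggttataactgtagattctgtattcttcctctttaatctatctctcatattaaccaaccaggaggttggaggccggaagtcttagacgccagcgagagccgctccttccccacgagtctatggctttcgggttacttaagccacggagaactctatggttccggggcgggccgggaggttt
BLM: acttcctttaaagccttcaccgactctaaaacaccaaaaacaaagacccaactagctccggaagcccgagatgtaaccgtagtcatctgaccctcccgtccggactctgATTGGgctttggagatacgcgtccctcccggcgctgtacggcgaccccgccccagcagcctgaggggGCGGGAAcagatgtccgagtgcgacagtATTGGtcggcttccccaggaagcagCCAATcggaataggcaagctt
RAD51AP1: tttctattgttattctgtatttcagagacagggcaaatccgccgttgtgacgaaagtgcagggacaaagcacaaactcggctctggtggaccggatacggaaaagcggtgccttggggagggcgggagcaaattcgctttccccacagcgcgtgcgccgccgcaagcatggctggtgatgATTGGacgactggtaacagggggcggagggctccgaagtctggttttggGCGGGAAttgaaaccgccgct
XRCC3: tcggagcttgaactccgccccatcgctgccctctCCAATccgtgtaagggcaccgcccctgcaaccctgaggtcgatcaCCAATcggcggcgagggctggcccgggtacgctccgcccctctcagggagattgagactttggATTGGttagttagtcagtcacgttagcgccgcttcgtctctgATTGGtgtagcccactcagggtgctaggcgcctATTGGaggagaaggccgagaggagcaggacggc
MUS81: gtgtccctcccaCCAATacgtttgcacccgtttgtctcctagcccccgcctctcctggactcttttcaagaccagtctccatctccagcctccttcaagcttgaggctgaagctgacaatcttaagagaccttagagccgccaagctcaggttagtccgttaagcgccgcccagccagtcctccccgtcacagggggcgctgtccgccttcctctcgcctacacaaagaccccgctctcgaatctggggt

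The printed windows were chosen for their matches, so that they hold matches is not a result. Of the 8 genes with the largest falls, those printed held an E2F word or a cell cycle homology core in their only window. XRCC3 and MUS81 were printed because their only window held a CCAAT box. Among the same 8, BARD1 and EXO1 held no match, MMS22L held CCAAT boxes alone and FANCI had no window. BRIP1 held 3 CCAAT boxes and 1 cell cycle homology core, BLM held 3 CCAAT boxes and 1 E2F word, RAD51AP1 held 1 of each of these last 2, and POLQ held 1 cell cycle homology core alone. XRCC3, which was not called, held 5 CCAAT boxes, and MUS81 held 1. Of the 39 genes, 33 had a window in the RefSeq table, 45 windows in all since some genes have several starts. A CCAAT box stood in 16 of the 29 windows (55.2%) of the genes that fell at least 2-fold at 20 h, in 4 of 16 windows (25%) of the other measured genes, and in 32.0% of all 35116 windows of the table. An E2F word stood in 8 (27.6%) and 4 (25%) of these windows, against 10.9% of all windows, and the cell cycle homology core in 3 (10.3%) and 3 (18.8%), against 13.3%. Over the windows of the genes tested here, the shares were 32.6% for the CCAAT box, 13.2% for the E2F words and 11.3% for the cell cycle homology core. Over the windows of all genes that fell at least 2-fold at 20 h, they were 41.9%, 24.4% and 15.8%, in the same order. Both strands were searched, several windows of 1 gene can overlap, and a match is a match of letters and not a measured binding site.

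The Fanconi core complex is the ubiquitin ligase of the pathway, and its transcripts fell unevenly. Of 8 measured genes of 9 listed, its E2 enzyme UBE2T included, 7 fell at 20 h and 4 at 8 h. FANCL, the catalytic RING subunit, measured 3.85, 3.58 and 3.61 at 20 h, 4.90, 4.85 and 4.97 at 8 h, and 5.66, 5.79 and 6.03 in controls. The 3 groups did not overlap, and each treated group lay below the controls. The arrays at 20 h lay below the median level of all genes. It fell by 2.15 at 20 h (SE 0.11, limma adjusted p = 5.57e-07, 4.43-fold) and by 0.92 at 8 h (SE 0.11, limma adjusted p = 0.00062, 1.90-fold). FANCM, the DNA translocase that anchors the complex, measured 3.28, 2.99 and 3.33 at 20 h, 4.33, 4.36 and 4.33 at 8 h, and 5.22, 5.39 and 4.98 in controls. Here too the groups stood in 3 separate ranges, that at 20 h below the median level of all genes. FANCM fell by 2.00 at 20 h (SE 0.12, limma adjusted p = 1.37e-06) and by 0.86 at 8 h (SE 0.12, limma adjusted p = 0.00139).

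FANCF, an adaptor subunit that holds the complex together, was low at both times. It measured 3.72, 3.68 and 3.73 at 20 h, 3.92, 3.31 and 3.78 at 8 h, and 4.60, 4.83 and 4.72 in controls. The treated groups overlapped each other and both lay below every control. Their means, 3.71 at 20 h and 3.67 at 8 h, lay below the median level of all genes. FANCF fell by 1.01 at 20 h (SE 0.14, limma adjusted p = 0.000328, 2.01-fold) and by 1.05 at 8 h (SE 0.14, limma adjusted p = 0.00111, 2.07-fold). Between 20 h and 8 h its difference was 0.04, with a 95% interval of -0.28 to 0.35 (limma adjusted p = 0.885), and it was -0.14 without 8 h replicate 2.

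FANCB, a subunit of the catalytic module of the ligase, was called lower at 20 h and not at 8 h. Its values were 4.05, 4.30 and 3.46 at 20 h, 5.55, 5.75 and 5.70 at 8 h, and 5.74, 5.58 and 5.70 in controls. All 3 arrays at 20 h lay below the others, while those at 8 h overlapped the controls. FANCB fell by 1.74 at 20 h (SE 0.18, limma adjusted p = 3.94e-05, 3.34-fold), whereas its difference at 8 h was -0.01, with a 95% interval of -0.40 to 0.39. UBE2T, the E2 enzyme that supplies the ubiquitin, measured 7.46, 7.31 and 7.18 at 20 h, 8.61, 8.61 and 8.69 at 8 h, and 8.91, 8.82 and 9.03 in controls. The ranges were separate, with most of the difference between 8 h and 20 h. UBE2T fell by 1.61 at 20 h (SE 0.09, limma adjusted p = 1.03e-06), and its difference of -0.28 at 8 h was not called (limma adjusted p = 0.0824). It was called after a second quantile normalization (limma adjusted p = 0.0321).

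Among the other subunits FANCG fell by 1.07 at 20 h (limma adjusted p = 0.000106) and by 0.55 at 8 h (limma adjusted p = 0.0189), and FANCC fell by 0.45 at 20 h (limma adjusted p = 0.0113). The 8 h call of FANCG ended without control replicate 2 or without 8 h replicate 1 or 3, at an adjusted p of 0.0515 to 0.0707. FANCE, which links the complex to its substrate, was not called. It measured 5.23, 5.35 and 5.30 at 20 h, 5.08, 5.39 and 4.82 at 8 h, and 5.32, 5.77 and 5.84 in controls. The arrays of both treated groups overlapped the lowest control. Its differences were -0.35 at 20 h (SE 0.16, limma adjusted p = 0.136) and -0.55 at 8 h (SE 0.16, limma adjusted p = 0.0557). Without control replicate 1 it was called lower at both times (limma adjusted p = 0.0318 and 0.0203), and without 8 h replicate 2 it was called at 8 h (limma adjusted p = 0.0303).

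FANCI, a subunit of the clamp that the core complex ubiquitinates, had the largest fall of the 39. It measured 4.63, 4.76 and 4.58 at 20 h, 7.11, 7.11 and 7.07 at 8 h, and 7.89, 8.13 and 7.72 in controls. The 3 groups were far apart, with means of 4.65 ± 0.09, 7.09 ± 0.02 and 7.91 ± 0.20 at 20 h, at 8 h and in controls (SD, n = 3 each). FANCI fell by 3.26 at 20 h (SE 0.10, 95% interval -3.49 to -3.03, limma adjusted p = 7.51e-08), a 9.57-fold lower level, and by 0.82 at 8 h (SE 0.10, limma adjusted p = 0.000813). It was 5.42-fold lower at 20 h than at 8 h (log2 -2.44, limma adjusted p = 8.82e-07). The nuclease FAN1, which acts on crosslinks, fell by 0.86 at 20 h (limma adjusted p = 0.00306). SLX4, the scaffold on which several nucleases assemble, fell by 0.38 at 20 h (limma adjusted p = 0.0062) and by 0.40 at 8 h (limma adjusted p = 0.0118), which was not called without 8 h replicate 1 (limma adjusted p = 0.0536). Between these, its difference was 0.03 with a 95% interval of -0.16 to 0.21.

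Of the BRCA1 complexes, which direct the broken end to recombination, 4 of 4 measured genes of 5 listed fell at least 2-fold at 20 h and 3 fell at 8 h. BRIP1, a helicase that binds BRCA1, measured 5.74, 5.58 and 5.60 at 20 h, 7.97, 8.03 and 8.33 at 8 h, and 8.39, 8.31 and 8.45 in controls. The arrays at 20 h lay far below all others, while the highest at 8 h reached the range of the controls. BRIP1 fell by 2.74 at 20 h (SE 0.10, limma adjusted p = 1.14e-07, 6.68-fold), and its difference of -0.27 at 8 h was not called (SE 0.10, limma adjusted p = 0.139). It was called in 2 alternatives, without 8 h replicate 3 (limma adjusted p = 0.034) and with array weights (limma adjusted p = 0.042). BARD1, the partner with which BRCA1 forms a ubiquitin ligase, measured 4.67, 4.72 and 5.05 at 20 h, 6.43, 6.29 and 6.54 at 8 h, and 7.03, 6.98 and 6.99 in controls. Its 3 groups did not overlap. BARD1 fell by 2.19 at 20 h (SE 0.11, limma adjusted p = 5.04e-07, 4.57-fold) and by 0.58 at 8 h (SE 0.11, limma adjusted p = 0.00741).

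BRCA1 itself measured 3.998, 4.25 and 4.12 at 20 h, 5.33, 5.36 and 5.45 at 8 h, and 5.68, 5.84 and 5.95 in controls. The 3 ranges were separate, as for its partner. BRCA1 fell by 1.70 at 20 h (SE 0.10, limma adjusted p = 9.24e-07, 3.25-fold) and by 0.45 at 8 h (SE 0.10, limma adjusted p = 0.0142). The 8 h call of BRCA1 ended without 8 h replicate 1 or 2 or with these counted as 1 sample, at an adjusted p of 0.0519 to 0.0584. PALB2, the bridge between the BRCA proteins, fell by 1.26 at 20 h (limma adjusted p = 9.89e-06) and by 0.59 at 8 h (limma adjusted p = 0.00481).

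The paralogues of the recombinase, which help it to form a filament, were mostly not called: of 3 measured genes of 5 listed, RAD51C was the only one called. RAD51C, a subunit common to both paralogue complexes, measured 2.76, 2.48 and 2.78 at 20 h, 3.71, 3.83 and 3.62 at 8 h, and 4.26, 4.21 and 4.44 in controls. The groups did not overlap, though the treated ones lay below the median level of all genes. RAD51C fell by 1.63 at 20 h (limma adjusted p = 2.22e-06, 3.10-fold) and by 0.59 at 8 h (limma adjusted p = 0.00579). RAD51B measured 3.26 to 3.48 at 20 h, 3.47 to 3.53 at 8 h and 3.50 to 3.60 in controls, below the median level throughout, with a difference of -0.21 at 20 h (limma adjusted p = 0.077), which was called without 20 h replicate 1 (limma adjusted p = 0.0256). XRCC3 measured 4.81, 4.84 and 5.05 at 20 h, 5.07, 5.05 and 4.98 at 8 h, and 5.05, 5.11 and 5.45 in controls. Its arrays at 20 h reached the lowest control, and the difference of -0.31 was not called (95% interval -0.56 to -0.05, limma adjusted p = 0.0723). It was called in 4 alternatives, among them without control replicate 1 (limma adjusted p = 0.048) and without 20 h replicate 3 (limma adjusted p = 0.0495).

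Partners of the recombinase all fell at 20 h, 3 of 3 measured genes of 4 listed, and 1 fell at 8 h. RAD51AP1, which promotes pairing of the filament with the sister strand, measured 5.08, 4.67 and 4.52 at 20 h, 6.67, 6.69 and 6.87 at 8 h, and 7.01, 6.98 and 7.19 in controls. The 3 ranges were separate, those at 8 h and in controls being close. RAD51AP1 fell by 2.30 at 20 h (SE 0.14, limma adjusted p = 1.31e-06, 4.93-fold), and its difference of -0.32 at 8 h was not called (SE 0.14, limma adjusted p = 0.196). RAD54L, the motor protein that remodels the paired strands, measured 4.78, 4.68 and 4.84 at 20 h, 5.94, 5.93 and 5.93 at 8 h, and 6.72, 6.80 and 6.92 in controls. Arrays of 1 group lay within a narrow range and the groups were apart. RAD54L fell by 2.05 at 20 h (SE 0.08, limma adjusted p = 1.34e-07, 4.13-fold) and by 0.88 at 8 h (SE 0.08, limma adjusted p = 0.000113, 1.84-fold). RAD52, which anneals single strands, fell by 0.70 at 20 h (limma adjusted p = 0.00779).

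End resection was lower throughout at 20 h: 5 of 5 measured genes of 6 listed fell, and 2 fell at 8 h. The 3 subunits of the complex that starts resection fell by like amounts at 20 h: MRE11, the nuclease, by 1.27, RAD50, the ATPase, by 1.08 and NBN, the adaptor, by 0.96 (limma adjusted p = 9.54e-06, 4.04e-06 and 4.05e-05). None of these 3 was called at 8 h, where their differences were -0.32, -0.21 and -0.19, although MRE11 was called without control replicate 3 (limma adjusted p = 0.0294). The long-range nucleases fell further. EXO1 measured 5.74, 5.51 and 5.82 at 20 h, 7.39, 7.41 and 7.41 at 8 h, and 7.91, 7.85 and 7.87 in controls. The 3 groups did not overlap and the arrays at 8 h agreed closely with each other. EXO1 fell by 2.19 at 20 h (SE 0.09, limma adjusted p = 1.68e-07, 4.56-fold) and by 0.47 at 8 h (SE 0.09, limma adjusted p = 0.00713). DNA2, the other long-range nuclease, fell by 2.12 at 20 h (limma adjusted p = 5.11e-07, 4.34-fold) and by 0.78 at 8 h (limma adjusted p = 0.00129).

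The enzymes that take joined molecules apart divided into those that fell far and those that did not. Of 6 measured genes of 7 listed, 4 fell at 20 h and 2 at 8 h. BLM, the helicase of the dissolving complex, measured 4.22, 4.24 and 4.18 at 20 h, 5.98, 6.02 and 6.47 at 8 h, and 6.65, 6.61 and 6.46 in controls. The arrays at 20 h were far below the rest, and 8 h replicate 3 lay within the controls. BLM fell by 2.36 at 20 h (SE 0.12, limma adjusted p = 5.73e-07, 5.13-fold), and its difference of -0.42 at 8 h was not called (SE 0.12, limma adjusted p = 0.0568). It was called in 5 alternatives, among them without 8 h replicate 3 (limma adjusted p = 0.00531). RMI1, a scaffold of the same complex, measured 5.13, 5.11 and 5.13 at 20 h, 5.90, 6.09 and 6.06 at 8 h, and 7.27, 7.12 and 6.82 in controls. All 3 groups were apart, and the difference at 8 h was the largest of the 39 genes. RMI1 fell by 1.95 at 20 h (SE 0.11, limma adjusted p = 1.04e-06, 3.86-fold) and by 1.05 at 8 h (SE 0.11, limma adjusted p = 0.00029, 2.07-fold). RMI2, the smaller scaffold, fell by 0.58 at 20 h (limma adjusted p = 0.0118).

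MUS81 and EME1 encode the 2 subunits of 1 nuclease that cuts joined molecules, and EME1 alone was called. MUS81, the catalytic subunit, measured 5.75, 5.78 and 5.54 at 20 h, 5.76, 5.68 and 5.55 at 8 h, and 5.72, 5.77 and 6.01 in controls. The 3 groups overlapped. Its difference was -0.14 at 20 h (95% interval -0.38 to 0.09, limma adjusted p = 0.36) and -0.17 at 8 h (95% interval -0.40 to 0.07, limma adjusted p = 0.402). EME1, the regulatory subunit, measured 3.93, 4.20 and 4.25 at 20 h, 4.30, 4.30 and 3.90 at 8 h, and 4.93, 4.89 and 5.21 in controls. Both treated groups lay below the controls and overlapped each other. EME1 fell by 0.88 at 20 h (limma adjusted p = 0.000746) and by 0.84 at 8 h (limma adjusted p = 0.00357). The difference between EME1 and MUS81 was not tested.

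WRN, a helicase and exonuclease of the same family as BLM, was the exception at 8 h. It measured 5.93, 6.05 and 5.96 at 20 h, 6.60, 6.61 and 7.09 at 8 h, and 6.36, 6.51 and 5.99 in controls. All 3 arrays at 8 h lay above every control, while those at 20 h overlapped control replicate 3. Its difference was 0.49 at 8 h (SE 0.16, 95% interval 0.13 to 0.84, limma adjusted p = 0.0788) and -0.31 at 20 h (SE 0.16, limma adjusted p = 0.183), and neither was called. WRN was lower at 20 h than at 8 h, by 0.79 (SE 0.16, 95% interval -1.15 to -0.44, limma adjusted p = 0.00502). Tested among the genes above the median level alone, the 8 h difference was called higher (limma adjusted p = 0.0414), and without control replicate 3 the 20 h difference was called lower (limma adjusted p = 0.0449).

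**Figure D3:**
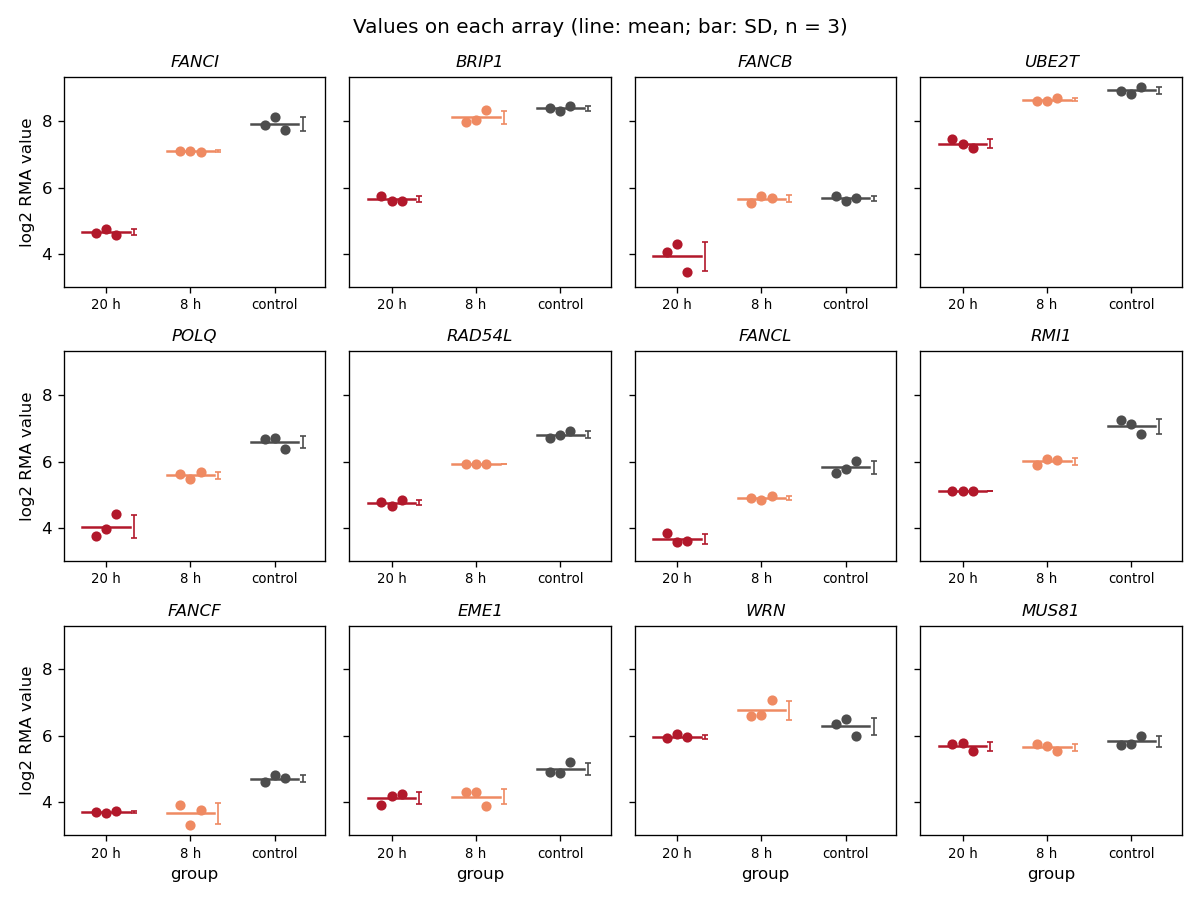
Log2 RMA level on each array for genes with different patterns over the 3 groups, which differ in dose as well as time. Arrays at 20 h, at 8 h and of controls stand from left to right in each panel. The group mean is a line and the SD (n = 3) a bar beside it. BRIP1 is low at 20 h and near the controls at 8 h, FANCF is low at both times, and WRN is highest at 8 h.

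Checkpoint kinases fell at 20 h in 3 of 3 measured genes of 5 listed, and 1 fell at 8 h. ATR, the kinase that responds to single-stranded DNA, measured 5.12, 5.23 and 4.99 at 20 h, 5.92, 5.90 and 6.04 at 8 h, and 6.59, 6.68 and 6.36 in controls. The 3 groups did not overlap. ATR fell by 1.43 at 20 h (limma adjusted p = 4.18e-06, 2.69-fold) and by 0.59 at 8 h (limma adjusted p = 0.00481). CHEK1, the effector kinase downstream of ATR, measured 6.77, 6.66 and 6.72 at 20 h, 7.69, 7.72 and 7.73 at 8 h, and 8.05, 8.03 and 7.86 in controls. Its ranges were separate too, with the smaller gap between 8 h and control. CHEK1 fell by 1.26 at 20 h (limma adjusted p = 1.77e-06, 2.40-fold), and its difference of -0.27 at 8 h was not called (limma adjusted p = 0.0584). It was called in 6 alternatives, among them without control replicate 3 (limma adjusted p = 0.0201). CHEK2, the effector kinase downstream of ATM, fell by 0.73 at 20 h (limma adjusted p = 0.0035), at levels below the median of all genes in every group, and differed by -0.05 at 8 h.

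Of the genes that protect stalled forks or join ends by another route, 2 of 4 fell at both times and 2 were not called. POLQ, the polymerase of microhomology-mediated end joining, measured 3.75, 3.97 and 4.43 at 20 h, 5.62, 5.48 and 5.68 at 8 h, and 6.68, 6.72 and 6.38 in controls. The groups were apart, with the widest spread at 20 h. POLQ fell by 2.55 at 20 h (SE 0.16, limma adjusted p = 1.86e-06, 5.84-fold) and by 1.00 at 8 h (SE 0.16, limma adjusted p = 0.00307, 2.00-fold). MMS22L, which works at forks in a complex with TONSL, measured 4.91, 4.65 and 4.32 at 20 h, 6.10, 6.20 and 6.20 at 8 h, and 7.10, 7.05 and 6.74 in controls. All 3 ranges were separate. MMS22L fell by 2.33 at 20 h (SE 0.15, limma adjusted p = 1.77e-06, 5.04-fold) and by 0.79 at 8 h (SE 0.15, limma adjusted p = 0.00645).

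Its partner TONSL, a reader of newly made histones, measured 5.42, 5.28 and 5.18 at 20 h, 5.42, 5.18 and 5.23 at 8 h, and 5.59, 5.44 and 6.19 in controls. Every treated array lay below every control, by a narrow margin for the lower controls. Its differences of -0.44 at 20 h (SE 0.17, limma adjusted p = 0.0831) and -0.46 at 8 h (SE 0.17, limma adjusted p = 0.125) were not called Without control replicate 2, its 20 h difference was called (limma adjusted p = 0.0302). HELQ, a helicase of crosslink repair, measured 4.11, 4.49 and 4.48 at 20 h, 4.48, 4.34 and 4.57 at 8 h, and 5.05, 4.86 and 4.50 in controls. The arrays at 20 h lay just below control replicate 3, and the difference of -0.44 was not called (limma adjusted p = 0.0505). Without control replicate 3, HELQ was called lower at 20 h (limma adjusted p = 0.00843) and at 8 h (limma adjusted p = 0.0433).

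Sorted by calls, the genes followed 6 patterns over the 3 comparisons. Lower in all 3 comparisons were 15 genes, FANCG, FANCL, FANCM, FANCI, BRCA1, BARD1, PALB2, RAD51C, RAD54L, EXO1, DNA2, RMI1, ATR, MMS22L and POLQ. A further 11 were lower at 20 h than in both other groups and not called at 8 h, FANCB, UBE2T, FAN1, BRIP1, RAD51AP1, MRE11, RAD50, NBN, BLM, CHEK1 and CHEK2. FANCF, SLX4 and EME1 were lower at both times than in controls and not called between the times, and FANCC, RAD52 and RMI2 were lower in 20 h against control alone. WRN was lower only in 20 h against 8 h, and FANCE, RAD51B, XRCC3, MUS81, TONSL and HELQ were not called in any comparison. A gene that missed the threshold at 8 h was not thereby shown to be unchanged there: BRIP1 at 8 h had a 95% interval of -0.50 to -0.04.

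The remaining genes of these pathways, 57 measured of 60 listed, were counted in the same way. At 20 h 38 fell, 19 of them at least 2-fold, and 4 rose, with a median difference of -0.65, and at 8 h 18 fell and 2 rose, with a median of -0.20. Over all genes, 17.2% were lower, 3.91% lower at least 2-fold and 13.1% higher at 20 h, and 6.28% were lower and 5.93% higher at 8 h. GEN1, a nuclease that cuts joined molecules, fell by 2.67 at 20 h (SE 0.19, limma adjusted p = 3.45e-06), PARPBP, an inhibitor of recombination, fell by 2.32 (limma adjusted p = 6.93e-06) and CLSPN, the adaptor through which ATR activates CHEK1, fell by 2.22 (limma adjusted p = 2.92e-07). ERCC1, a subunit of a nuclease of crosslink repair, rose by 0.82 at 20 h (limma adjusted p = 0.00048), and FAAP20, an accessory subunit of the core complex, rose by 0.33 (limma adjusted p = 0.0398). WEE1, a kinase that restrains entry into mitosis, and WDR48, a cofactor of the enzyme that removes ubiquitin from the clamp, rose at 8 h by 0.40 (limma adjusted p = 0.0132) and 0.49 (limma adjusted p = 0.0285).

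H2AX, the histone that the checkpoint kinases phosphorylate at breaks, went against the list. It measured 7.86, 8.05 and 8.26 at 20 h, 6.96, 6.96 and 6.78 at 8 h, and 7.34, 7.15 and 7.75 in controls. The arrays at 20 h were the highest and those at 8 h the lowest, with no overlap. H2AX rose by 0.64 at 20 h (SE 0.15, limma adjusted p = 0.00897), while its difference of -0.51 at 8 h was not called (limma adjusted p = 0.0584). UIMC1, which brings a BRCA1 complex to ubiquitin at breaks, measured 9.93, 9.99 and 9.64 at 20 h, 8.12, 8.08 and 8.24 at 8 h, and 9.01, 8.42 and 9.25 in controls. Its groups were apart in the same order as those of H2AX. UIMC1 rose by 0.96 at 20 h (SE 0.18, limma adjusted p = 0.00257) and fell by 0.75 at 8 h (limma adjusted p = 0.0252). Another probe set of UIMC1 averaged 7.05 at 20 h, 6.85 at 8 h and 6.58 in controls, so that its mean at 8 h lay above that of the controls, unlike that of the brighter probe set. ABRAXAS1, BABAM1 and BRCC3, other subunits of that BRCA1 complex, fell at 20 h, by 1.01, 0.35 and 1.24 (limma adjusted p = 0.000474, 0.015 and 3.12e-06).

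Cell cycle genes fell alongside. Of 23 measured G1/S and replication genes, 22 fell at 20 h with a median of -1.49, and 14 fell at 8 h with a median of -0.40. Of 23 G2/M and mitosis genes, 22 fell at 20 h with a median of -1.73, and 10 fell at 8 h with a median of -0.28. The shares of all genes called lower were 17.2% at 20 h and 6.28% at 8 h. MCM10, which helps to start replication, fell by 2.30 at 20 h, PRIM1, the catalytic primase subunit, by 2.38, CCNA2, a cyclin of S and G2 phase, by 2.47 and TOP2A, the topoisomerase that untangles chromosomes, by 2.79. PTTG1, securin, rose instead, by 0.78 at 20 h (limma adjusted p = 0.00214) and by 0.73 at 8 h (limma adjusted p = 0.00872). These lists moved with the repair genes at both times, and their part in the result was not tested. On control replicate 3 the G1/S genes had a median difference of 0.13 from the other controls and the G2/M genes one of -0.30.

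Of 8 luminal markers 1 was higher at 20 h, TFF1, and 2 at 8 h, and 0 were lower at either time, where 13.1% and 5.93% of all genes were higher at 20 h and at 8 h. Of 7 leukocyte markers 3 were higher at 20 h, CD14, ITGAM and CD68, and 0 at 8 h. Over the 7 the median difference at 20 h was 0.23 and the largest 0.77, and 0 were called lower. PTPRC, another of the 7, stayed at 1.85 or below on every array, which does not speak for the 3 that rose. The largest difference among the luminal markers at 20 h was 1.38. What these rises reflect was not tested. Of the 7 markers of this line itself, 1 was higher and 1 lower at 20 h, and 3 were higher and 1 lower at 8 h. SNAI2, a transcription factor of mesenchymal cells, rose by 1.95 at 20 h (limma adjusted p = 4.77e-06) and by 1.62 at 8 h (limma adjusted p = 9.36e-05).

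**Figure D4:**
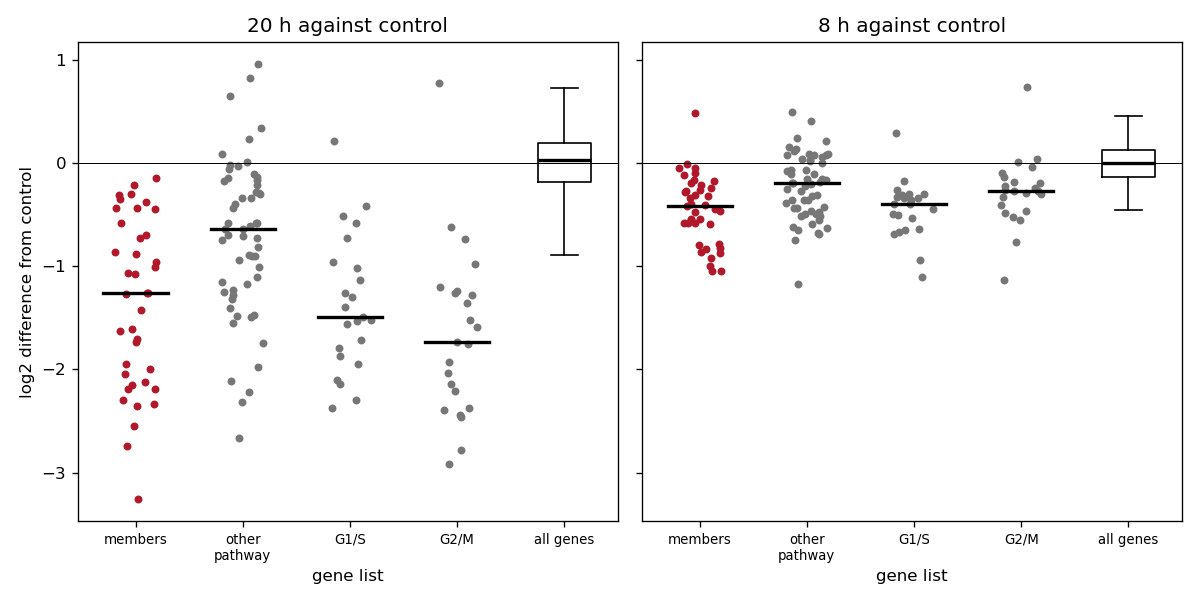
Log2 differences from control of single genes in each list (points), at 20 h and at 8 h, with list medians as bars, for the 39 repair genes (members), the other genes of the same pathways, both cell cycle lists and, as a box of the quartiles with whiskers from the 5th to the 95th percentile, all genes tested. The medians at 20 h are -1.26 for the repair genes, -0.65 for the other pathway genes, -1.49 and -1.73 for the cell cycle lists and 0.03 for all genes.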

How the data were processed

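RNA of 9 MDA-MB-231 samples was measured on Affymetrix arrays, and the authors summarised each of 53617 probe sets with RMA in Affymetrix Expression Console, per the submitters' processing notes. The deposited values are on the log2 scale. Versions and the genome build were not given in the sources used here.

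The deposited values were used without further normalization or filter. Of 25713 probe sets in the platform's gene table, 23558 carried 1 symbol and 2155 several, and those with several were left out. The brightest probe set was kept for 618 genes with several, and 3 symbols were updated through gene identifiers. In R 4.3.3, limma 3.58.1 (lmFit, eBayes) fitted a mean for each of the 3 groups over the 9 arrays (6 residual and 4.01 prior degrees of freedom). Two-sided p-values were adjusted with the Benjamini-Hochberg method over the 22109 genes tested, with calls at an adjusted p under 0.05. No exact permutation test was made, since 3 arrays against 3 allow no p below 0.1. The fit was tested on simulated data. Precision is limited by the number of arrays.

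Genes and lists were chosen with earlier results of these data known. Values on every array are given for the 8 genes with the largest difference at 20 h and the 6 with the largest at 8 h. They are also given for the 4 with the highest mean level among those not called at 20 h, and for others that show their role. Alternatives were other probe set rules, normalizations, variance models and sets of arrays, the replicate number as a block, and, chosen after seeing the data, a symbol listed more than once on its probe set counted once. Same-numbered arrays deviated from their group means with correlations of -0.318 to 0.111, so the numbers were not taken as pairs. Promoters were searched and tables written in Python 3.11.15 with pandas 2.3.3 and numpy 2.4.6, and figures drawn with matplotlib 3.10.9.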

Additional observations from a re-analysis of the deposited data

Results flagged for a closer look

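Genes were flagged by a rule with 2 parts. The gene had to be called in 20 h against 8 h, as 27 of the 39 repair genes were. All its arrays at 20 h and all those at 8 h also had to lie on opposite sides of the control mean. The rule was applied to the 39 repair genes and to the named genes of the other lists, and it picked 3. That their treated groups lay on opposite sides follows from the rule and is not a separate result. WRN was lower by 0.79 at 20 h than at 8 h (log2 difference -0.79, SE 0.16, limma adjusted p = 0.00502), with a mean below that of the controls at 20 h and above it at 8 h. Neither difference of WRN from the controls was called (limma adjusted p = 0.183 at 20 h and 0.0788 at 8 h). Its arrays at 20 h overlapped control replicate 3. H2AX was higher at 20 h than at 8 h by 1.16 (SE 0.15, limma adjusted p = 0.000501). Its difference from the controls at 8 h was not called (limma adjusted p = 0.0584). UIMC1 was higher at 20 h than at 8 h by 1.71 (SE 0.18, limma adjusted p = 0.000143), measured on the brighter of its probe sets. Its other probe set averaged 7.05 at 20 h, 6.85 at 8 h and 6.58 in controls. There both treated means lay above that of the controls, so the opposite sides were seen on the brighter probe set alone. Dose and time both differ between these groups and cannot be told apart.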

How the results depend on the processing

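The count of repair genes lower at 20 h was 32 to 35 under every alternative run, and no gene called there lost its call where it was tested. With genes above the median level only, 35 repair genes were tested, without RAD51C, CHEK2 and RMI2, which had been called at 20 h. At 8 h the count ran from 15 to 25, with 15 to 21 when 1 array was left out, 25 with array weights, 24 after a second quantile normalization and 16 with 8 h replicates 1 and 2 counted as 1. In 20 h against 8 h it was 26 to 28. With 1 array left out, the median difference ran from -1.33 to -1.21 at 20 h, from -0.46 to -0.40 at 8 h and from -0.90 to -0.84 between them, and all genes called numbered 5697 to 6891, 1807 to 2923 and 3611 to 5583. A second quantile normalization gave medians of -0.48 at 8 h and -0.76 in 20 h against 8 h. With all probe sets uncollapsed, 10929, 4253 and 8002 were called at 20 h, at 8 h and between them, against 6704, 2698 and 4991 genes; more features were tested there. Restricted to genes above the median level, 1 repair gene, WRN, was higher at 8 h. The cause was not tested for these or for the changes of sign below.

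A fit with a block for the replicate number gave 32, 18 and 28 repair genes lower, and 6331, 2204 and 4519 genes called in all, at 20 h, at 8 h and between the treated groups. For each array and each other group, the array of that group with the highest correlation of deviations was taken. It had the same number in 6 of 18 cases, a share that random numbering would give on average. With the repeated symbol counted once, RECQL4 fell by 0.75 at 20 h (SE 0.19, limma adjusted p = 0.0121), and 33, 18 and 27 of 40 genes were lower.

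Differences that changed sign were not called in any setting run. At 8 h that of FANCB was 0.00034 with 8 h replicates 1 and 2 counted as 1, and -0.0516 to 0.0520 with 1 array left out. In 20 h against 8 h, TONSL had -0.000453 after centring, and EME1 had 0.0220 with 8 h replicates 1 and 2 counted as 1. With 1 array left out, the 20 h against 8 h differences ran from -0.0404 to 0.0950 for TONSL, -0.177 to 0.0557 for EME1, -0.0275 to 0.0888 for SLX4, -0.143 to 0.163 for FANCF, -0.0336 to 0.0963 for MUS81 and -0.166 to 0.0214 for HELQ. The call of FANCG in 20 h against 8 h ended without 8 h replicate 2 (limma adjusted p = 0.0506), and that of FANCC was gained without 20 h replicate 2 (limma adjusted p = 0.0155).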
